A study of Homo sapiens with 6 samples.

Results

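Gene expression was compared between 2 lines of naive human embryonic stem cells (hESC), named RH6 (Royan H6) and RH5 (Royan H5). The naive RH6 libraries came from passage 10 and the naive RH5 libraries from passage 17, with 2 libraries of each line. Naive cells of both lines had been induced in 2a2iL, were kept in 2iL medium and were passaged with trypsin. For each line 1 primed library was also sequenced, from cells in medium containing bFGF, RH6 at passage 20 and RH5 at passage 16. All cultures grew on a layer of inactivated mouse embryonic fibroblasts (MEF). Passage changed with the line, so line and passage cannot be told apart. The labels do not say whether the duplicates of a line are separate cultures. A p-value here therefore weighs the line difference against the spread among libraries, and that spread may be technical.

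A gene entered the comparison when it had at least 1 CPM (a count scaled by library size) in at least 2 of the 4 naive libraries, which 16880 of 63677 genes did. Just inside this limit, CHGB, HDAC10 and AURKC had a second-highest value of 1.02 CPM, and just outside it FAM184B, TMEM40 and SMPX had 0.998 CPM. Each naive library held 13496061 to 14663982 counts. Duplicates correlated across genes at 0.989 for RH6 and 0.990 for RH5, and libraries of different lines at 0.944 to 0.946. Log2 differences are given as RH6 minus RH5 with their standard errors (± SE, in parentheses after a gene's values), and a gene was called at a Benjamini-Hochberg adjusted p under 0.05 in edgeR's quasi-likelihood test over all tested genes.

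Naive pluripotent cells resemble the epiblast of the embryo before implantation, and primed cells the epiblast after it. In the primed state cells depend on FGF and activin or nodal signals, whereas naive media hold the cells by LIF and by inhibitors of differentiation signals. Both lines were grown here in the same naive medium.

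The lines differed in 4892 of 16880 genes, or 29.0%. Of these, 2336 (13.8%) were higher in naive RH6 and 2556 (15.1%) lower. A difference of at least 2-fold was called in 664 genes higher in RH6 (3.93%) and 1304 lower (7.73%). The median log2 difference over all tested genes was 0.01. Some genes had to differ to be tested at all: 300 passed the CPM limit through both RH6 libraries alone, and 673 through both RH5 libraries alone. Of the 15907 genes with at least 1 CPM in a library of each line, 2130 (13.4%) were higher and 2107 (13.2%) lower. Where a count of a gene list below says tested, it covers all tested members and is read against 13.8% higher and 15.1% lower. All other list counts cover members with at least 1 CPM in a library of each line and are read against 13.4% and 13.2%.

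Among called genes with a mean of at least 5 CPM in the higher line, leaving out clone and antisense names, the widest differences in favour of RH6 were led by zinc finger genes. The KRAB zinc finger family encodes repressors that bind DNA, many of them at transposable elements, and its members lie in tandem clusters, above all on chromosome 19. ZNF560 had 36.97 and 32.2 CPM in the naive RH6 libraries and 0 and 0.0742 CPM in the naive RH5 libraries, a log2 difference of 9.61 ± 0.35 (edgeR adjusted p = 4.78e-07). Over the counts of both duplicates the ratio was 957-fold, with a 95% counting interval of 171 to 37845. ZNF844 had 22.9 and 24.4 CPM in the naive RH6 libraries and 0.566 and 0.371 CPM in the naive RH5 libraries, a log2 difference of 5.65 ± 0.23 (edgeR adjusted p = 9.62e-07). ZNF69 and ZNF736 were near 0 in naive RH5 as well. ZNF69 had 16.4 and 19.01 CPM in naive RH6 and 0.354 and 0.0742 CPM in naive RH5 (6.32 ± 0.34), and ZNF736 had 10.5 and 10.3 CPM in naive RH6 and 0.212 and 0.0742 CPM in naive RH5 (6.11 ± 0.36). All 4 genes passed the CPM limit through RH6 alone. Each of them had clear counts in primed RH5, so that naive RH5 stood apart from the other 3 groups. ZNF844 had 32.7 CPM in primed RH6 and 33.9 CPM in primed RH5, ZNF69 had 33.9 CPM in primed RH6 and 29.2 CPM in primed RH5, and ZNF560 had 44.3 CPM in primed RH6 and 10.1 CPM in primed RH5.

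Across the 487 tested genes with a ZNF, ZSCAN, ZKSCAN or ZFP symbol, 101 were higher and 58 lower in naive RH6. At least 4-fold differences were called in 16 higher and 4 lower, against 1.16% higher and 2.18% lower of all tested genes. Of the 16, 13 were under 1 CPM in both naive RH5 libraries and were tested only because they were high in RH6, so their direction was fixed by the limit. In the primed libraries 14 of the 16 reached 1 CPM in each. Chromosome 19 held 12 of the 16. Along chromosome 19, in the gene order of the GENCODE v29 annotation, a run of 12 tested zinc finger genes from ZNF441 to ZNF625 was called higher in RH6 without a gap, at log2 differences of 0.77 to 6.32. The highest edgeR adjusted p among the 12 was 0.0478, for ZNF625. In the primed libraries 11 of the 12 differed between the lines by less than 1 on the log2 scale. ZNF439, the exception, had 1.30 CPM in primed RH6 and 7.23 CPM in primed RH5. Next to the run, ZNF136 had 25.01 and 24.96 CPM in naive RH6 and 20.9 and 21.7 CPM in naive RH5 and was not called. The stretch of 23 tested zinc finger genes from ZNF627 to ZNF791, which holds the run, had 13 higher and 0 lower. Of the 206 tested zinc finger genes of the chromosome outside this stretch, 42 were higher and 26 lower. Of the run, ZNF491, ZNF439, ZNF69, ZNF433, ZNF878, ZNF844 and ZNF788 were under 1 CPM in both naive RH5 libraries. Their direction was fixed by the limit, and the counts of the run and of the stretch include them. The run was picked out after its values were seen and has no test. Zinc finger paralogs share sequence, so how reads were divided among neighbours is uncertain.

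Beside the zinc finger genes, ATP8A2, SNORD3B-1, CT64, TMBIM4, APOA1, LIN7A, CLDN11, CCDC152, CBLN1 and MFAP4 had the widest differences in favour of RH6 under the same limit of 5 CPM. Of these, SNORD3B-1, CT64 and TMBIM4 passed the limit of 1 CPM through RH6 alone. ATP8A2, which encodes a phospholipid flippase, had 46.1 and 48.5 CPM in the naive RH6 libraries and 0.991 and 1.19 CPM in the naive RH5 libraries, a log2 difference of 5.46 ± 0.17 (edgeR adjusted p = 2.22e-07). LIN7A, a scaffold gene of cell polarity complexes, had 54.4 and 51.2 CPM in naive RH6 and 3.68 and 3.71 CPM in naive RH5 (3.86 ± 0.13). CBLN1, which encodes a secreted synapse organizer, had 53.7 and 51.1 CPM in naive RH6 and 4.04 and 4.30 CPM in naive RH5 (3.68 ± 0.13). CLDN11, a tight junction claudin, had 18.4 and 16.7 CPM in naive RH6 and 1.20 and 1.48 CPM in naive RH5 (3.73 ± 0.21). In these 4 genes the lines did not overlap, as in 64.7% of all tested genes. ATP8A2 and LIN7A were also well expressed in both primed libraries, whereas CLDN11 was low there, with 1.30 CPM in primed RH6 and 3.69 CPM in primed RH5.

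The 14 called genes with the widest differences in favour of RH5, again at a mean of at least 5 CPM in the higher line and without clone and antisense names, were at or near 0 in naive RH6. All 14 passed the limit of 1 CPM through RH5 alone, so their direction was fixed by it. SOST, which encodes the secreted Wnt antagonist sclerostin, had 0 counts in both naive RH6 libraries and 24.7 and 25.5 CPM in naive RH5 (edgeR adjusted p = 1.46e-06). Against a floor of 3 counts over the group, it was at least 238-fold higher in naive RH5. VSTM2B, also at 0 in naive RH6, was at least 82.2-fold higher. SLC5A7, the choline transporter gene of cholinergic neurons, had 0.136 and 0 CPM in naive RH6 and 30.7 and 26.3 CPM in naive RH5, a ratio of 407-fold, with a 95% counting interval of 112 to 3368. SLC34A2, a phosphate transporter gene, had 0.748 and 1.02 CPM in naive RH6 and 32.5 and 29.00 CPM in naive RH5 (-5.09 ± 0.20). TFAP2B, a transcription factor gene of neural crest, had 0.815 and 0.581 CPM in naive RH6 and 21.1 and 21.5 CPM in naive RH5 (-4.88 ± 0.22). CLEC10A, GALP, CLEC11A, CBR1, ATP6V1B1, HOXA3, GDF10, LYNX1 and TNFSF9 completed this group.

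Primed libraries divided these genes. SOST had 0.546 CPM in primed RH6 and 0.148 CPM in primed RH5 and HOXA3 had 0 counts in both, so that naive RH5 alone was high. TNFSF9, which encodes a ligand of the TNF family, had 0.136 and 0.581 CPM in naive RH6 and 8.64 and 9.94 CPM in naive RH5 and 0.683 CPM in primed RH6 and 0.959 CPM in primed RH5. CBR1, the carbonyl reductase gene, was low in RH6 in both states. It had 0 and 0.290 CPM in naive RH6 and 7.65 and 7.27 CPM in naive RH5, 15.3 CPM in primed RH5 and 0 counts in primed RH6. The plot of the widest differences shows these patterns library by library.

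**Figure D1:**
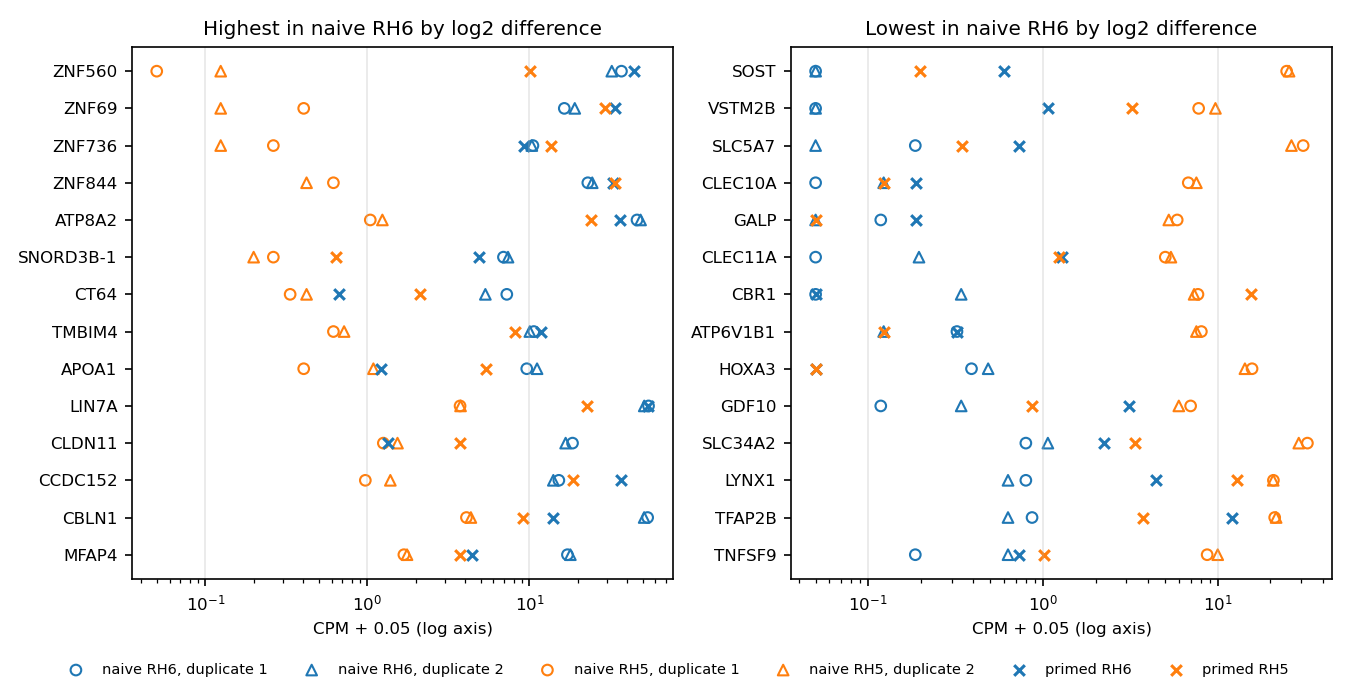
CPM plus 0.05 on a log axis in each of the 6 libraries for the 14 named genes with the highest and the 14 with the lowest log2 difference between naive RH6 and naive RH5. Circles and triangles are the naive duplicates and crosses the primed libraries, with RH6 in blue and RH5 in orange. The primed RH5 library lies near the RH6 values for ZNF69, ZNF736 and ZNF844 and far from the naive RH5 values.

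By difference in mean CPM, which is not divided by transcript length, the genes highest in naive RH6 over naive RH5 were EEF1A1, HSPA8, SERPINB9, CNTNAP2, FN1 and SLC2A3. The translation elongation factor gene EEF1A1 had 4414 and 4105 CPM in naive RH6 and 3129 and 3088 CPM in naive RH5 (0.48 ± 0.10). The chaperone gene HSPA8 had 3372 and 3507 CPM in naive RH6 and 2415 and 2339 CPM in naive RH5 (0.56 ± 0.10). SERPINB9, a granzyme B inhibitor gene, had 1883 and 1818 CPM in naive RH6 and 1013 and 886 CPM in naive RH5 (0.99 ± 0.10), and the contactin-associated gene CNTNAP2 had 1193 and 1157 CPM in naive RH6 and 407 and 387 CPM in naive RH5 (1.59 ± 0.09). The fibronectin gene FN1 (0.99 ± 0.11) and the glucose transporter gene SLC2A3 (0.86 ± 0.10) differed in the opposite direction in the primed libraries, where FN1 had 244 CPM in primed RH6 and 799 CPM in primed RH5 and SLC2A3 535 CPM in primed RH6 and 976 CPM in primed RH5. The genes with the largest difference in mean CPM in favour of RH5 were FLNA, PRTG, MAP1B, HUWE1, USP9X and RPS6. PRTG, protogenin, had 1916 and 1602 CPM in naive RH6 and 3203 and 2781 CPM in naive RH5 (-0.74 ± 0.12), and the ribosomal protein gene RPS6 had 1346 and 1517 CPM in naive RH6 and 2024 and 2230.3 CPM in naive RH5 (-0.54 ± 0.11). MAP1B had 2450.2 and 2879.7 CPM in naive RH6 and 3680.3 and 4059 CPM in naive RH5 (-0.51 ± 0.11). Its call was lost without naive RH6 replicate 1 or naive RH5 replicate 2 (highest edgeR adjusted p = 0.0578). FLNA, HUWE1 and USP9X, the other three, are all X-linked.

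Genes of chromosome X were lower in naive RH6 as a group. This was noticed in the data and is given as a description. Of 682 tested X-linked genes, leaving out genes that are not reported here, 481 (70.5%) were called lower in RH6 and 18 (2.64%) higher, with a median log2 difference of -0.89. Of 15762 autosomal genes, 2022 (12.8%) were lower and 2250 (14.3%) higher, with a median of 0.03. The medians of single autosomes lay between -0.02 and 0.10. The filamin gene FLNA, which crosslinks actin, had 1640.4 and 1696 CPM in naive RH6 and 3324 and 3215 CPM in naive RH5 (-0.94 ± 0.09). HUWE1, a ubiquitin ligase gene, had 1007 and 1006 CPM in naive RH6 and 2033 and 1886 CPM in naive RH5 (-0.93 ± 0.09), and USP9X, a deubiquitinase gene, had 893 and 829 CPM in naive RH6 and 1588 and 1527 CPM in naive RH5 (-0.83 ± 0.09). The ribosomal protein gene RPS4X had 771 and 790.2 CPM in naive RH6 and 1432 and 1359.9 CPM in naive RH5 (-0.81 ± 0.09). The difference ran along the whole chromosome: with the tested genes in order split into 10 bins of 68 or 69, bin medians were -0.68 to -1.06. Of all X-linked genes, 48.5% were between 1.5- and 2.5-fold lower in RH6, against 9.55% of autosomal genes.

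X-linked genes made up 2.93% of the CPM of tested genes in both naive RH6 libraries and 5.33% and 5.35% in the naive RH5 libraries. In the primed libraries they made up 3.25% in RH6 and 3.37% in RH5, and their median line difference was 0.01. Within RH5 the naive libraries exceeded the primed library by a median of 0.69 on the log2(CPM + 0.5) scale over X-linked genes, and within RH6 the median was -0.12. The corresponding autosomal medians were -0.02 and -0.03. Naive RH5 was thus the group that stood apart. The test of the difference in line effect between the states called 284 X-linked genes with a lower line difference in naive than in primed cells (41.6%, against 6.05% of autosomal genes) and 14 higher. Among the 18 X-linked genes called higher in naive RH6 were HSPA8P1, EEF1A1P29 and TDGF1P3, pseudogenes of HSPA8, EEF1A1 and TDGF1, with which they may share reads. The others included SLC38A5 and BGN, and these 5 genes were named after their values were seen. With only autosomal genes in the fit, an alternative chosen after the data were seen, 2056 genes were called higher and 2116 lower.

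**Figure D2:**
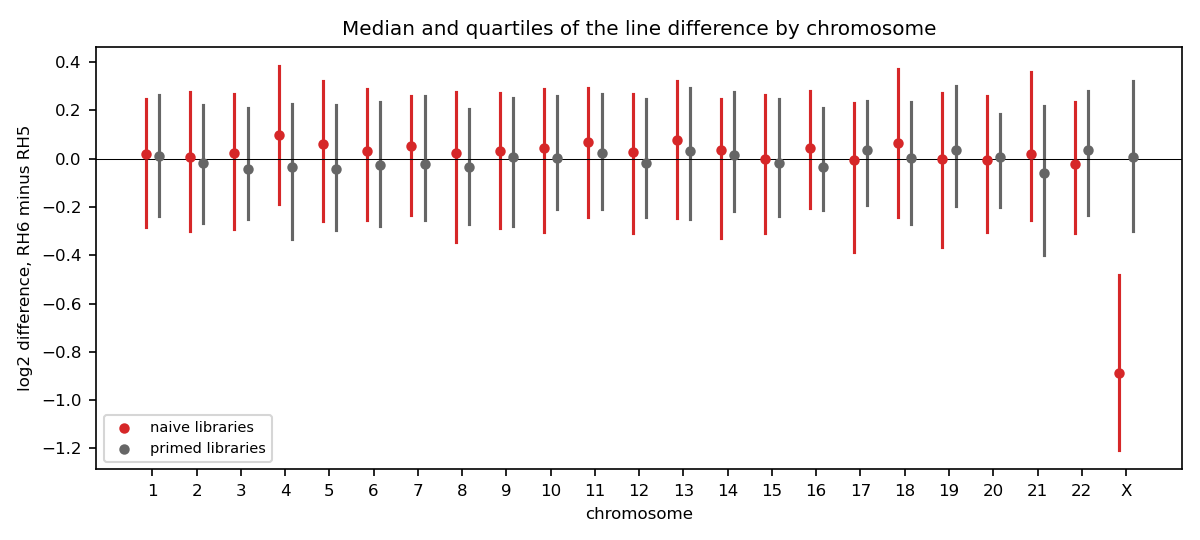
Median (point) and quartiles (line) of the log2 difference RH6 minus RH5 over the tested genes of each chromosome, for the naive libraries (red, 2 per line) and the primed libraries (grey, 1 per line). The X chromosome stands at a median of -0.89 in the naive libraries and 0.01 in the primed libraries, and every autosome lies near 0 in both.

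Immediate early genes were mostly lower in naive RH6. They encode transcription factors and regulators such as EGR, FOS and JUN, which are transcribed rapidly after growth factor, ERK or stress signals. Of 23 such genes with CPM in both lines, 1 was higher and 20 lower in naive RH6, with a median log2 difference of -1.40. With other settings 19 to 22 of all 25 tested members were called lower, and 16 in a test against a 1.5-fold change. The 250 bases upstream of RefSeq starts are shown for EGR1 and EGR2, because these are the members whose window holds a CArG box, the binding sequence of serum response factor (SRF) through which growth factor signals reach many genes of this group. Capitals mark the CArG boxes, which begin 105 and 83 bases before the EGR1 start and 71 bases before the EGR2 start. Sequences are from RefSeq on build GRCh38.p14, at chr5:138465229-138465478 on the plus strand for EGR1 and chr10:62816367-62816616 on the minus strand for EGR2.

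EGR1: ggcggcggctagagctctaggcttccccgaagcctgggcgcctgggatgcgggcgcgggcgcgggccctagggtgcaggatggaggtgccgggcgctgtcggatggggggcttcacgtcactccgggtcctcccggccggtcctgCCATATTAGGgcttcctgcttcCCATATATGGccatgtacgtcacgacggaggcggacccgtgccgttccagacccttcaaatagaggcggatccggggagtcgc
EGR2: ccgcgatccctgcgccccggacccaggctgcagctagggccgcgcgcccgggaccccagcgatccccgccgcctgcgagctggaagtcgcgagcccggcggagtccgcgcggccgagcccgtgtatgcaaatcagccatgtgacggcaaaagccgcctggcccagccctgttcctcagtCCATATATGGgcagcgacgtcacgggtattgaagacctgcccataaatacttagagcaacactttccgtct

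Of the 25 list members, 18 were found in the promoter table. The CArG box, searched on both strands, occurred in windows of 2 of them, EGR1 and EGR2, and in 1.16% of all 35116 windows. A list gene was counted when any of its starts matched, whereas all windows were counted start by start. The shares are therefore not the same measure, here and for the next motif. The cAMP response element TGACGTCA occurred in 1 of the 18, JUND, and in 1.65% of all windows. The letters of TGACGTCA read the same on both strands, and no window of the list held both motifs. A match of letters is a description of the sequence and not of binding.

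EGR3 had 12.9 and 12.99 CPM in the naive RH6 libraries and 230.5 and 266 CPM in the naive RH5 libraries, a log2 difference of -4.23 ± 0.12 (edgeR adjusted p = 1.84e-07). EGR2, an EGR family member known from hindbrain patterning and myelination, had 1.29 and 1.81 CPM in naive RH6 and 25.9 and 27.9 CPM in naive RH5 (-4.09 ± 0.19). EGR1, whose promoter is printed above and which was named after its values were seen, had 35.7 and 33.7 CPM in naive RH6 and 264 and 303 CPM in naive RH5 (-3.00 ± 0.11, edgeR adjusted p = 4.67e-07). All of the EGR genes were therefore lower in both naive RH6 libraries than in either naive RH5 library. EGR4, which passed the CPM limit through RH5 alone, had 0.136 and 0.435 CPM in naive RH6 and 5.45 and 6.45 CPM in naive RH5 (-4.33 ± 0.42), and ARC, an activity-regulated gene of neurons, had 2.31 and 3.34 CPM in naive RH6 and 29.5 and 38.7 CPM in naive RH5 (-3.57 ± 0.21). FOS and JUN, also named after their values were seen, together form the AP-1 complex. FOS had 77.7 and 73.9 CPM in naive RH6 and 208 and 254 CPM in naive RH5 (-1.58 ± 0.11), and JUN had 107 and 143 CPM in naive RH6 and 318 and 356 CPM in naive RH5 (-1.40 ± 0.14). In the primed libraries EGR1 had 235 CPM in primed RH6 and 213 CPM in primed RH5, close to the naive RH5 level, and EGR3 had 53.9 CPM in primed RH6 and 24.6 CPM in primed RH5. The line effect on EGR3 differed between the states by -5.39 ± 0.20, with 1 primed library per line. EGR3 was named for the size of its naive difference, which is part of this value, so no p-value is given.

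Not every member followed. NR4A2, an orphan nuclear receptor gene that passed the CPM limit through RH6 alone, was higher in naive RH6 with 4.28 and 5.01 CPM in naive RH6 and 0.921 and 0.445 CPM in naive RH5 (2.77 ± 0.36). FOSL2 had 69.8 and 65.02 CPM in naive RH6 and 54.5 and 52.95 CPM in naive RH5 (0.36 ± 0.10, edgeR adjusted p = 0.0219), a call that was lost with DESeq2 and without naive RH6 replicate 1, naive RH5 replicate 1 or naive RH5 replicate 2. The survival gene MCL1, named after its values were seen, had 543 and 549.9 CPM in naive RH6 and 521 and 558 CPM in naive RH5 and was not called.

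**Figure D3:**
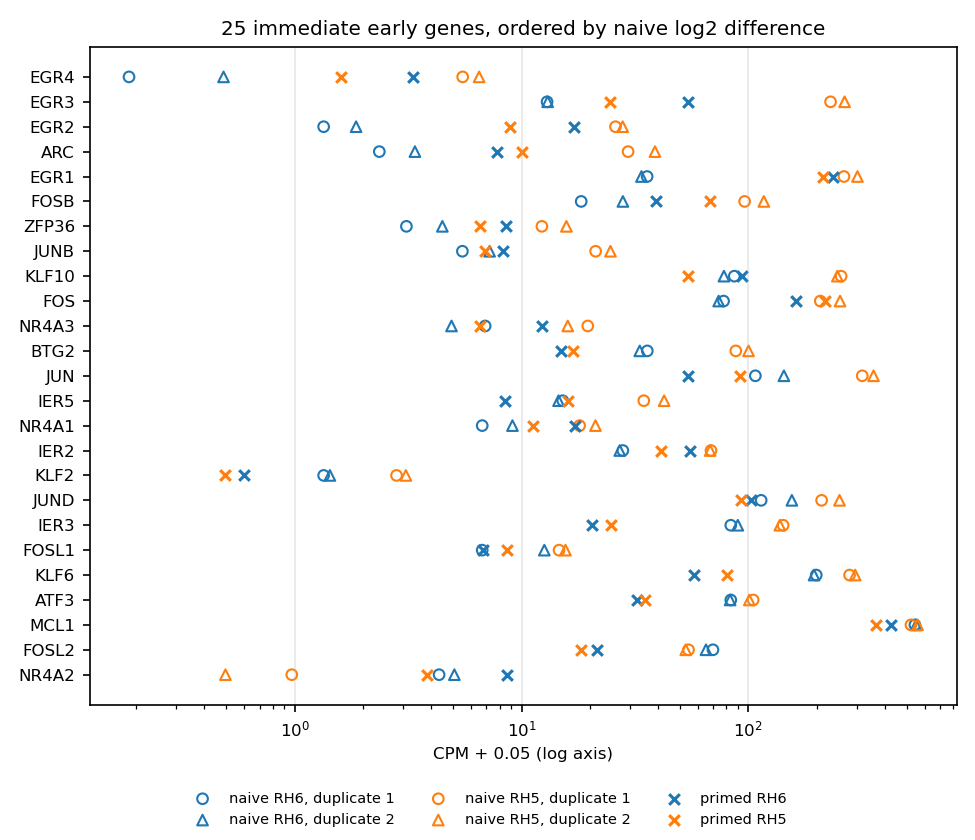
CPM plus 0.05 on a log axis for 25 tested immediate early genes in the 6 libraries, ordered by the naive log2 difference with the lowest at the top. Circles and triangles are the naive duplicates and crosses the primed libraries, RH6 in blue and RH5 in orange. The EGR genes and ARC at the top have both naive RH6 libraries far to the left of both naive RH5 libraries, and MCL1 near the bottom shows no separation.

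FGF and ERK pathway genes went both ways. Of 35 FGF ligand, receptor and ERK feedback genes, 6 were higher and 12 lower in naive RH6, with a median log2 difference of 0.02. The count of lower members over the whole list fell from 12 to 7 without naive RH5 replicate 1. FGF2, named after its values were seen and the ligand of primed media, had 203 and 188 CPM in naive RH6 and 116 and 133 CPM in naive RH5 (0.68 ± 0.10). Of the feedback inhibitors of the pathway, SPRY1 was higher in naive RH6 with 24.8 and 26.5 CPM in naive RH6 and 7.36 and 8.23 CPM in naive RH5 (1.74 ± 0.14), while SPRY4 had 123 and 127 CPM in naive RH6 and 249 and 231 CPM in naive RH5 (-0.91 ± 0.09). The ERK phosphatase gene DUSP6 had 10.9 and 11.03 CPM in naive RH6 and 18.6 and 19.4 CPM in naive RH5 (-0.77 ± 0.13), and DUSP1 19.2 and 17.3 CPM in naive RH6 and 35.5 and 35.4 CPM in naive RH5 (-0.93 ± 0.11). The transcription factor gene ETV1, a target of the pathway, was higher, with 53.8 and 44.8 CPM in naive RH6 and 25.8 and 26.03 CPM in naive RH5 (0.96 ± 0.12).

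LIF acts through its receptor and JAK kinases on STAT3. Of 23 genes of the LIF and STAT3 response, 3 were higher and 12 lower in naive RH6, with a median log2 difference of -0.57. GBX2, a STAT3 target in pluripotent cells, had 12.4 and 14.01 CPM in naive RH6 and 66.3 and 66.6 CPM in naive RH5 (-2.30 ± 0.11, edgeR adjusted p = 2.18e-06). JUNB was lower too (-1.83 ± 0.17), as were the receptor genes CNTFR (-2.34 ± 0.38) and OSMR (-1.99 ± 0.32), both of which passed the CPM limit through RH5 alone. SOCS2, a feedback inhibitor, was higher with 37.4 and 35.8 CPM in naive RH6 and 15.7 and 17.9 CPM in naive RH5 (1.15 ± 0.12). The number of higher members, 3, fell to 1 without naive RH5 replicate 1.

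The core pluripotency network was in part stronger in naive RH6. NANOG had 81.00 and 73.1 CPM in the naive RH6 libraries and 36.7 and 35.2 CPM in the naive RH5 libraries, a log2 difference of 1.13 ± 0.10 (edgeR adjusted p = 7.58e-05). SOX2 had 313 and 353 CPM in naive RH6 and 166 and 189.6 CPM in naive RH5 (0.93 ± 0.11), and the nodal co-receptor gene TDGF1 had 893 and 776 CPM in naive RH6 and 509 and 478 CPM in naive RH5 (0.79 ± 0.10). POU5F1, which encodes OCT4, had 359 and 497 CPM in naive RH6 and 343 and 407 CPM in naive RH5 and was not called. It was called only with replicate number as a block in the fit. Of 19 core pluripotency genes, 7 were higher and 3 lower in naive RH6, with a median log2 difference of 0.22. The count of lower members was 1 without naive RH6 replicate 1. SALL1 was the lower member with the widest difference, at 61.02 and 66.04 CPM in naive RH6 and 214 and 227 CPM in naive RH5 (-1.77 ± 0.09). DPPA2 (-0.73 ± 0.17) and ZFP42 (-0.43 ± 0.12) were also lower. Without naive RH6 replicate 1 the calls of DPPA2 (edgeR adjusted p = 0.0506) and ZFP42 were lost, and ZFP42 was not called without naive RH5 replicate 2 either (highest edgeR adjusted p = 0.137).

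Genes of the naive state differed in both directions. Of 23 naive pluripotency genes, 4 were higher and 6 lower in naive RH6, with a median log2 difference of -0.17. PRDM14, a repressor of differentiation genes, had 185 and 177 CPM in naive RH6 and 91.5 and 99.3 CPM in naive RH5 (0.95 ± 0.09), and NLRP2, an oocyte gene, had 251 and 238 CPM in naive RH6 and 70.9 and 65.04 CPM in naive RH5 (1.87 ± 0.09). The naive surface gene SUSD2 was lower in RH6, with 6.52 and 6.97 CPM in naive RH6 and 18.98 and 20.02 CPM in naive RH5 (-1.50 ± 0.15). TFCP2L1, a naive transcription factor gene, had 5.23 and 4.14 CPM in naive RH6 and 9.35 and 9.49 CPM in naive RH5 (-0.98 ± 0.19), and the alkaline phosphatase gene ALPPL2 had 3.13 and 2.47 CPM in naive RH6 and 11.3 and 11.4 CPM in naive RH5 (-1.99 ± 0.20). KLF17, another naive factor, was below the CPM limit with 0 and 2 counts in naive RH6 and 13 and 18 in naive RH5. KLF4 had 10.5 and 11.1 CPM in naive RH6 and 12.7 and 14.5 CPM in naive RH5 and DPPA3 2.24 and 4.28 CPM in naive RH6 and 3.33 and 3.63 CPM in naive RH5, and neither was called.

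Of genes that mark the primed state, more were higher in naive RH6. Of 26 such genes, 14 were higher and 3 lower in naive RH6, with a median log2 difference of 0.58. ZIC2, a zinc finger factor of the primed epiblast, had 194 and 209.9 CPM in naive RH6 and 56.2 and 58.4 CPM in naive RH5 (1.84 ± 0.09, edgeR adjusted p = 2.75e-06). OTX2, which drives the transition toward the primed state, had 134 and 122 CPM in naive RH6 and 38.8 and 34.3 CPM in naive RH5 (1.83 ± 0.11), and ZIC5 had 208 and 205 CPM in naive RH6 and 72.6 and 69.2 CPM in naive RH5 (1.57 ± 0.09). These levels stayed under those of the primed libraries for OTX2 and ZIC5, with 289 CPM in primed RH6 and 198 CPM in primed RH5 for OTX2 and 450.5 CPM in primed RH6 and 324 CPM in primed RH5 for ZIC5. ZIC2 had 329 CPM in primed RH6 and 207 CPM in primed RH5, so its naive RH6 level reached that of primed RH5. VIM, vimentin, had 417 and 429.6 CPM in naive RH6 and 225 and 239 CPM in naive RH5 (0.90 ± 0.09).

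The nodal branch of TGF-beta signalling holds ligands (NODAL, GDF3, activins), the co-receptor TDGF1, the LEFTY antagonists and the SMAD transducers, and the title of the study names the TGF-beta pathway. Of 39 components, 12 were higher and 6 lower in naive RH6, with a median log2 difference of 0.14. Among ligands, INHBA, a subunit gene of activin A, had 19.9 and 19.01 CPM in naive RH6 and 2.20 and 3.63 CPM in naive RH5 (2.77 ± 0.21). GDF3 had 83.7 and 76.4 CPM in naive RH6 and 43.3 and 37.9 CPM in naive RH5 (1.01 ± 0.11), and NODAL had 151 and 183 CPM in naive RH6 and 117 and 107 CPM in naive RH5 (0.60 ± 0.11). LRRC32, which tethers latent TGF-beta at the cell surface, had 38.3 and 26.4 CPM in naive RH6 and 10.3 and 9.20 CPM in naive RH5 (1.76 ± 0.19). LEFTY2, both a target and an antagonist of nodal, had 246 and 256 CPM in naive RH6 and 119.7 and 117 CPM in naive RH5 (1.11 ± 0.09), while LEFTY1 had 31.4 and 32.4 CPM in naive RH6 and 36.2 and 34.1 CPM in naive RH5 and was not called. The nodal and BMP antagonist gene CER1 was lower in RH6, with 60.1 and 88.6 CPM in naive RH6 and 119 and 121 CPM in naive RH5 (-0.66 ± 0.16), as was SMAD7, the inhibitory SMAD, with 84.5 and 75.98 CPM in naive RH6 and 132 and 118 CPM in naive RH5 (-0.61 ± 0.10). Lower components, 6 in the main test, were 3 with DESeq2 and without naive RH5 replicate 2.

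Targets of the pathway were split. Of 30 target genes, 10 were higher and 10 lower in naive RH6, with a median log2 difference of 0.10. The collagen gene COL1A1 had 355 and 272 CPM in naive RH6 and 80.6 and 92.3 CPM in naive RH5 (1.89 ± 0.14), and CDKN2B, a cell cycle inhibitor gene, had 14.3 and 15.3 CPM in naive RH6 and 4.39 and 5.64 CPM in naive RH5 (1.59 ± 0.18). JUNB, KLF10 (-1.58 ± 0.09) and the matricellular gene CTGF (-1.16 ± 0.09) were lower.

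The title of the study also names NR5A2, an orphan nuclear receptor, and RARG, a retinoic acid receptor. NR5A2 had 47.6 and 47.5 CPM in the naive RH6 libraries and 22.02 and 21.5 CPM in the naive RH5 libraries, a log2 difference of 1.15 ± 0.10 (edgeR adjusted p = 7.41e-05). RARG had 17.2 and 21.2 CPM in naive RH6 and 17.5 and 16.2 CPM in naive RH5 and RARA 10.4 and 11.03 CPM in naive RH6 and 10.8 and 7.34 CPM in naive RH5, and neither was called. NR0B1, a nuclear receptor gene known to bind NR5A family members, had 0.680 and 1.23 CPM in naive RH6 and 2.83 and 1.71 CPM in naive RH5 (-1.23 ± 0.41, edgeR adjusted p = 0.0537) and was not called. NR0B1 is X-linked, and the median log2 difference of all tested X-linked genes was -0.89. It was called in 6 of 12 alternatives, among them RLE and upper-quartile factors and no filter on low counts. The fits without naive RH6 replicate 2 or naive RH5 replicate 2 were also among the 6. RARB had 6.18 and 6.46 CPM in naive RH6 and 4.32 and 3.93 CPM in naive RH5 (0.64 ± 0.20, edgeR adjusted p = 0.0423), a call lost with upper-quartile scaling, with DESeq2, with all 6 libraries and without any 1 of the naive libraries. Of 24 retinoid and NR5A2 genes, 3 were higher and 9 lower in naive RH6, with a median log2 difference of -0.18. CYP26A1, the enzyme gene that breaks down retinoic acid, had 127 and 126 CPM in naive RH6 and 23.6 and 21.1 CPM in naive RH5 (2.53 ± 0.10). CRABP1, a retinoic acid binding protein gene, went the other way with 4.15 and 5.08 CPM in naive RH6 and 116 and 106 CPM in naive RH5 (-4.56 ± 0.13), and the retinol receptor gene STRA6 was lower as well (-1.15 ± 0.13).

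HOX genes pattern the body axis and include direct targets of retinoic acid, and those called were lower in naive RH6 with 1 exception. Of 13 HOX genes with CPM in both lines, 1 was higher and 5 lower in naive RH6, with a median log2 difference of -0.69, and 4 more passed the CPM limit through RH5 alone. HOXA3, 1 of those 4, had 0.340 and 0.435 CPM in naive RH6 and 15.6 and 14.2 CPM in naive RH5 (-5.22 ± 0.26). HOXB1, a retinoic acid target of the hindbrain, had 6.46 and 7.91 CPM in naive RH6 and 44.04 and 67.04 CPM in naive RH5 (-2.92 ± 0.22). HOXB2, named after its values were seen, had 8.90 and 8.56 CPM in naive RH6 and 27.9 and 32.5 CPM in naive RH5 (-1.76 ± 0.14). HOXB6 was the exception, with 5.91 and 4.57 CPM in naive RH6 and 2.41 and 2.67 CPM in naive RH5 (1.07 ± 0.25), a call lost without naive RH6 replicate 1 (edgeR adjusted p = 0.0829). HOXB1 and HOXB2 were under 1 CPM in both primed libraries.

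Wnt ligands act through beta-catenin on target genes that include their own antagonists. Of 26 Wnt target genes, 8 were higher and 11 lower in naive RH6, with a median log2 difference of -0.20. NOTUM, a feedback enzyme that inactivates Wnt, had 1.70 and 1.74 CPM in naive RH6 and 10.8 and 11.3 CPM in naive RH5 (-2.65 ± 0.21). The homeobox genes MSX2 (-1.56 ± 0.11) and CDX1 (-1.47 ± 0.16) were lower, whereas the adhesion receptor gene CD44 (0.99 ± 0.12) and the ligand gene WNT3 (0.61 ± 0.10) were higher. Of 35 Wnt ligands, receptors and antagonists, 6 were higher and 12 lower in naive RH6, with a median log2 difference of -0.13. WNT8A had 4.35 and 3.77 CPM in naive RH6 and 15.2 and 18.4 CPM in naive RH5 (-2.02 ± 0.18), and RSPO3, which amplifies Wnt signals, had 8.22 and 8.78 CPM in naive RH6 and 1.91 and 1.56 CPM in naive RH5 (2.31 ± 0.23). The secreted antagonist gene SFRP1 had 128 and 122 CPM in naive RH6 and 45.95 and 52.8 CPM in naive RH5 (1.37 ± 0.10). Of 29 BMP ligands, receptors and targets, 9 were higher and 11 lower in naive RH6, with a median log2 difference of 0.10. ID4, a BMP target, had 26.2 and 24.6 CPM in naive RH6 and 83.8 and 83.4 CPM in naive RH5 (-1.69 ± 0.10), and the BMP antagonist gene GREM1 had 21.3 and 21.99 CPM in naive RH6 and 5.45 and 6.90 CPM in naive RH5 (1.84 ± 0.16).

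**Figure D4:**
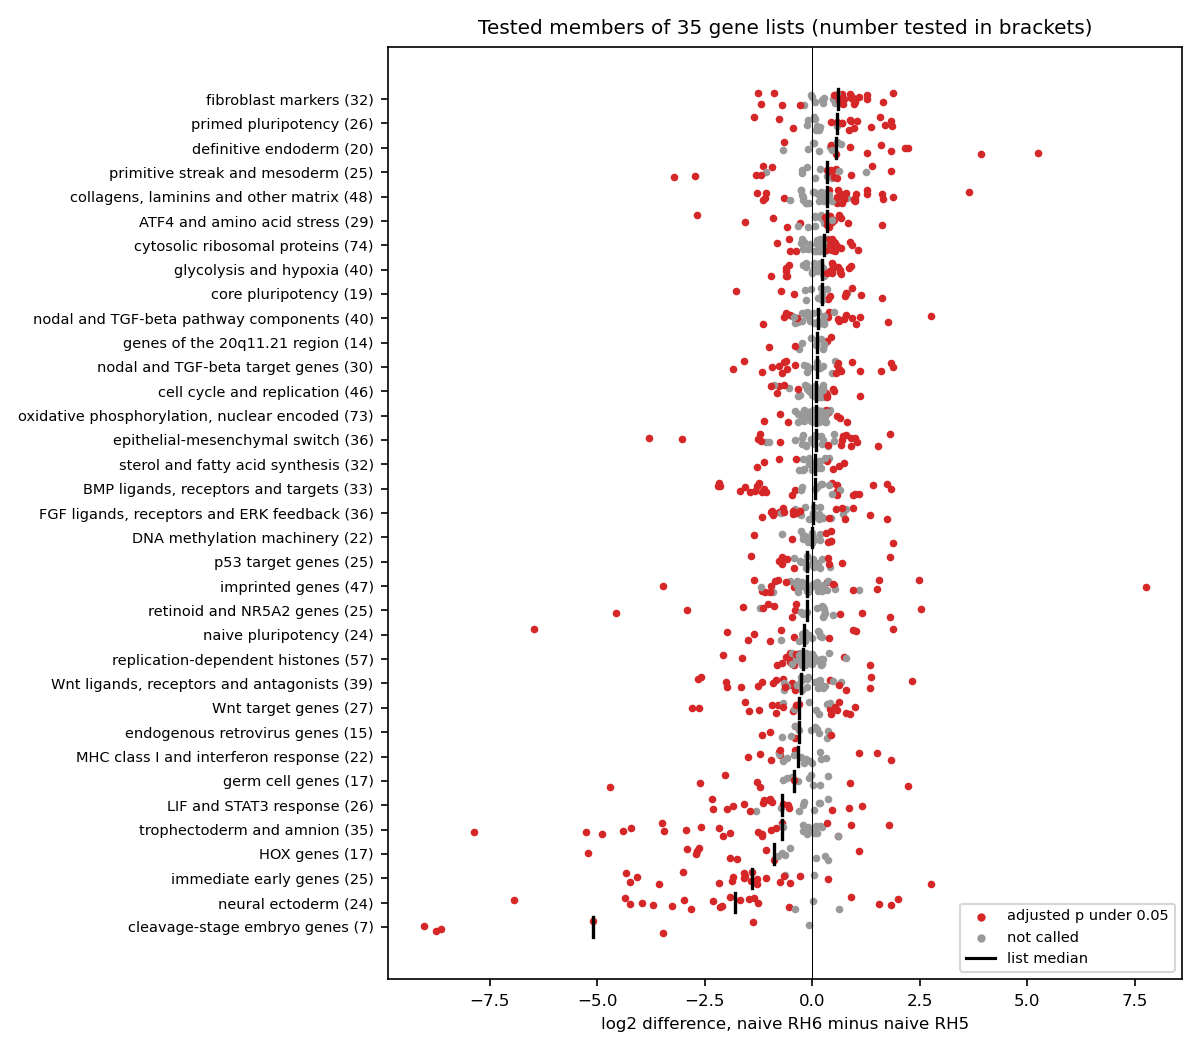
Log2 difference naive RH6 minus naive RH5 of the tested members of 35 gene lists, with genes called at an adjusted p under 0.05 in red, others in grey and the list median as a black bar. Lists are ordered by their median, from fibroblast markers at 0.60 at the top to cleavage-stage embryo genes at -5.09 at the bottom, and members that passed the CPM limit in 1 line only are included.

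Some lineage markers differed between the lines and others were not called. In bulk RNA, fewer cells of a type and less RNA per cell cannot be told apart. Neural ectoderm genes were mostly lower in naive RH6. Of 19 with CPM in both lines, 4 were higher and 12 lower in naive RH6, with a median log2 difference of -1.35, and 5 passed through RH5 alone. LMX1B, a LIM homeobox gene of the midbrain, had 1.97 and 1.89 CPM in naive RH6 and 42.6 and 38.3 CPM in naive RH5 (-4.36 ± 0.16, edgeR adjusted p = 5.04e-07). MAP2, a microtubule gene of dendrites, had 2.45 and 2.32 CPM in naive RH6 and 38.4 and 37.01 CPM in naive RH5 (-3.95 ± 0.15), and STMN2, a neuronal stathmin gene that passed through RH5 alone, had 0.476 and 0.435 CPM in naive RH6 and 8.36 and 9.42 CPM in naive RH5 (-4.23 ± 0.29). The defining markers did not follow: PAX6 had 1.22 and 1.597 CPM in naive RH6 and 1.49 and 1.33 CPM in naive RH5 and was not called, and SOX1 was below the CPM limit with 0 to 12 counts per naive library. The neurofilament gene NEFL was higher in naive RH6 with 137 and 177 CPM in naive RH6 and 37.5 and 43.5 CPM in naive RH5 (1.98 ± 0.14). The summed level of the list was 968 and 1341 CPM in naive RH6 and 1222 and 1494 CPM in naive RH5. Neither the share of cells nor its part in other results was tested.

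Endoderm genes that were called were higher in naive RH6 with 1 exception. Of 17 with CPM in both lines, 7 were higher and 1 lower in naive RH6, with a median log2 difference of 0.46, and 3 passed through RH6 alone. APOA1, an apolipoprotein gene of liver and gut, had 9.58 and 11.1 CPM in naive RH6 and 0.354 and 1.04 CPM in naive RH5 (3.92 ± 0.34, edgeR adjusted p = 6.70e-05). The endoderm factor gene SOX17 is 1 of the 3 that passed through RH6 alone, and had 2.51 and 2.90 CPM in naive RH6 and 0.850 and 0.297 CPM in naive RH5 (2.24 ± 0.43). EOMES, a T-box factor of the primitive streak and endoderm, had 141 and 141 CPM in naive RH6 and 42.8 and 37.2 CPM in naive RH5 (1.84 ± 0.10). FOXA2 (1.28 ± 0.33), GATA4 (0.54 ± 0.14) and GATA6 (0.44 ± 0.15) were called, but with less support. FOXA2 was not called without naive RH6 replicate 2 (edgeR adjusted p = 0.113), GATA4 not without naive RH6 replicate 1 or naive RH5 replicate 2 (highest edgeR adjusted p = 0.131), and GATA6 in only 1 of 13 other settings. The summed level of the list was 424 and 447 CPM in naive RH6 and 332 and 321 CPM in naive RH5.

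Streak and mesoderm genes were mixed. Of 21 with CPM in both lines, 9 were higher and 3 lower in naive RH6, with a median log2 difference of 0.44. KDR, a VEGF receptor gene of early mesoderm, had 243 and 249.9 CPM in naive RH6 and 93.4 and 97.7 CPM in naive RH5 (1.39 ± 0.09). T had 51.04 and 59.8 CPM in naive RH6 and 42.8 and 40.6 CPM in naive RH5 (0.44 ± 0.11), a call lost without naive RH6 replicate 2 or naive RH5 replicate 2 (highest edgeR adjusted p = 0.0823). MIXL1, a defining streak marker like T and EOMES, was lower in RH6 with 40.98 and 40.9 CPM in naive RH6 and 86.6 and 72.2 CPM in naive RH5 (-0.93 ± 0.11). The 9 higher members of the list fell to 3 without naive RH6 replicate 1 or naive RH5 replicate 2, and to 5 with DESeq2.

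Trophectoderm and amnion genes differed in both directions. Of 25 with CPM in both lines, 4 were higher and 8 lower in naive RH6, with a median log2 difference of -0.11, and 10 passed through RH5 alone. TFAP2B, described above, and GCM1 are among those 10. GCM1, a syncytiotrophoblast factor gene, had 0 counts in naive RH6 and 1.77 and 2.45 CPM in naive RH5, and was at least 19.96-fold higher there. Of the defining markers, CDX2 had 5.10 and 3.19 CPM in naive RH6 and 7.15 and 6.53 CPM in naive RH5 and was not called. GATA3, with 13.05 and 11.5 CPM in naive RH6 and 10.9 and 10.4 CPM in naive RH5, was not called either. CDX2 was called with no filter on low counts, with replicate number as a block and without naive RH6 replicate 1. ELF5 and CGB were below the CPM limit, with at most 5 counts in a library. ENPEP, an aminopeptidase gene, was higher in RH6 with 15.9 and 15.4 CPM in naive RH6 and 4.18 and 5.04 CPM in naive RH5 (1.79 ± 0.17). The 4 higher members fell to 2 with DESeq2, without naive RH6 replicate 1 or without naive RH5 replicate 2, and to 1 without naive RH5 replicate 1.

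Few genes of the cleavage-stage embryo, active around the first activation of the embryo's genome, were expressed. Of the 33 listed, 7 were tested. The 4 that passed through RH5 alone had to be lower in RH6, and of the other 3, 2 were lower and 0 higher. TRIM43, TRIM49 and KDM4E are among the 4. TRIM43 had 0 counts in naive RH6 and 4.89 and 4.45 CPM in naive RH5, and was at least 44.4-fold higher there (edgeR adjusted p = 7.34e-05). TRIM49 was at least 36.5-fold and KDM4E, a histone demethylase gene, at least 33.7-fold higher in naive RH5, both from 0 counts in naive RH6. TRIM43 and TRIM49 have close copies in the genome, so their reads are uncertain. CCNA1, named after its values were seen, had 0.951 and 1.96 CPM in naive RH6 and 15.7 and 16.8 CPM in naive RH5 (-3.46 ± 0.26). The untested ZSCAN4 had 1 and 0 counts in naive RH6 and 19 and 11 in naive RH5.

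Few germ cell genes passed the CPM limit. Of 41 listed, 17 were tested, and 2 were higher and 6 lower in naive RH6. Of these 17, 4 passed through RH5 alone and 1 through RH6 alone, so their direction was fixed by the limit. Of the 12 with CPM in both lines, 1 was higher and 2 lower. KIT, a receptor gene of germ cells and other progenitors, had 39.8 and 31.8 CPM in naive RH6 and 19.5 and 20.1 CPM in naive RH5 (0.88 ± 0.13). The defining markers DDX4 and DAZL had at most 3 counts in any naive library. The 6 lower members fell to 3 with DESeq2 or without naive RH6 replicate 1.

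Fibroblast, matrix and mesenchymal genes that were called were mostly higher in naive RH6. Of 31 fibroblast genes with CPM in both lines, 17 were higher and 4 lower in naive RH6, with a median log2 difference of 0.63. COL1A1, the main fibrillar collagen gene, had 355 and 272 CPM in the naive RH6 libraries and 80.6 and 92.3 CPM in the naive RH5 libraries, a log2 difference of 1.89 ± 0.14 (edgeR adjusted p = 2.34e-05). COL12A1 (1.64 ± 0.15), COL5A2 (1.28 ± 0.11) and COL6A2 (1.26 ± 0.09) were higher too. COL3A1 had 155 and 112 CPM in naive RH6 and 81.2 and 92.6 CPM in naive RH5 (0.65 ± 0.15), a call lost without naive RH6 replicate 1 (edgeR adjusted p = 0.0559). The other defining fibroblast markers did not differ as clearly: LUM had 20.3 and 12.5 CPM in naive RH6 and 10.1 and 12.2 CPM in naive RH5 and POSTN 10.7 and 8.06 CPM in naive RH6 and 9.42 and 9.86 CPM in naive RH5, both not called, and DCN had at most 8 counts in a naive library. Over all 32 tested members 17 were higher and 5 lower, and the 5 fell to 2 without naive RH6 replicate 1 or naive RH5 replicate 2. The summed level of the list was 6928 and 6382 CPM in naive RH6 and 5089 and 5260.3 CPM in naive RH5. All cultures grew on mouse fibroblasts, and how many of these reads came from the feeder layer was not tested.

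Of 47 collagen, laminin and other matrix genes, 19 were higher and 5 lower in naive RH6, with a median log2 difference of 0.30. Of 32 genes of the epithelial-mesenchymal switch, 11 were higher and 3 lower in naive RH6, with a median log2 difference of 0.21. The neural cadherin gene CDH2 had 428 and 434 CPM in naive RH6 and 220.3 and 209.9 CPM in naive RH5 (1.03 ± 0.09). The tight junction gene OCLN was higher with 53.3 and 52.8 CPM in naive RH6 and 19.9 and 17.8 CPM in naive RH5 (1.52 ± 0.11), while CLDN4, an epithelial claudin gene that passed through RH5 alone, had 0.951 and 0.218 CPM in naive RH6 and 4.81 and 5.27 CPM in naive RH5 (-3.04 ± 0.44), and the epithelial factor gene GRHL2 was lower as well (-1.21 ± 0.20). Single genes thus differed in both directions, but of the switch genes with CPM in both lines more were higher (11) than lower (3) in naive RH6.

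Of 22 tested genes of the DNA methylation machinery, 6 were higher and 2 lower, and the 6 fell to 3 without naive RH5 replicate 1. DNMT3B, a de novo methyltransferase gene, had 339 and 348 CPM in naive RH6 and 252 and 263 CPM in naive RH5 (0.44 ± 0.09), a call lost without naive RH5 replicate 1 (edgeR adjusted p = 0.0638). DNMT1, DNMT3A and DNMT3L were not called, at log2 differences of -0.22, 0.03 and -0.02. DNMT1 was called without naive RH6 replicate 2 and with replicate number as a block in the fit. Of 47 tested imprinted genes, which are expressed from the copy of 1 parent, 8 were higher and 10 lower. Of the 42 with CPM in both lines, 6 were higher and 10 lower. MKRN3 passed the CPM limit through RH6 alone, had 0 counts in RH5 in both states and was at least 17.4-fold higher in naive RH6, with 1.43 and 2.39 CPM there. NPAP1, its neighbour in the same imprinted region, had 8.97 and 12.3 CPM in naive RH6 and 2.05 and 1.78 CPM in naive RH5 (2.49 ± 0.25). DLK1, a paternally expressed growth regulator, went the other way with 1.02 and 0.943 CPM in naive RH6 and 12.96 and 9.27 CPM in naive RH5 (-3.46 ± 0.28), and the growth inhibitor gene CDKN1C had 6.93 and 5.37 CPM in naive RH6 and 15.5 and 16.7 CPM in naive RH5 (-1.36 ± 0.17). NNAT, a paternally expressed gene of the brain, was higher with 6.66 and 7.62 CPM in naive RH6 and 3.19 and 1.93 CPM in naive RH5.

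Growth and metabolism lists showed small differences. Of 74 tested cytosolic ribosomal protein genes, 28 were higher and 4 lower in naive RH6, with a median of 0.28. RPS28 had 57.8 and 54.7 CPM in naive RH6 and 26.2 and 28.3 CPM in naive RH5 (1.07 ± 0.10), and RPL9 had 221 and 217 CPM in naive RH6 and 123 and 112 CPM in naive RH5 (0.92 ± 0.09). Of the 4 lower, RPS4X, RPL10 and RPL39 are X-linked. The call of RPL39 was lost without naive RH6 replicate 1 or naive RH5 replicate 1 (highest edgeR adjusted p = 0.156). The higher count depended on single libraries. It was 11 without naive RH6 replicate 2 and 16 without naive RH5 replicate 1, and the summed level was 28976 and 33156 CPM in naive RH6 and 27380.4 and 28551 CPM in naive RH5. Of 40 tested glycolysis and hypoxia genes, 14 were higher and 6 lower. The count of higher genes was 7 without naive RH6 replicate 1 and 8 without naive RH5 replicate 2. Of 73 tested nuclear genes of oxidative phosphorylation, 5 were higher and 3 lower, and the 3 lower, NDUFA1, NDUFB11 and COX7B, are all X-linked. NDUFA1 was not called with DESeq2, without naive RH6 replicate 1 or without naive RH5 replicate 1. The 5 higher became 9 without naive RH5 replicate 1 and 1 without naive RH5 replicate 2, and the 3 lower became 8 without naive RH6 replicate 2.

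Of 29 tested genes of ATF4 and amino acid stress, 14 were higher and 5 lower. The counts of higher genes were 9 without naive RH6 replicate 1 and 5 without naive RH5 replicate 2, and the 5 lower were 3 without naive RH6 replicate 2. VLDLR, a lipoprotein receptor gene, had 50.6 and 53.9 CPM in naive RH6 and 17.1 and 17.4 CPM in naive RH5 (1.63 ± 0.11), and the amino acid transporter gene SLC7A5 had 736 and 741 CPM in naive RH6 and 432 and 417 CPM in naive RH5 (0.83 ± 0.09), while the cystine transporter gene SLC7A11 was lower with 236 and 239 CPM in naive RH6 and 421 and 487 CPM in naive RH5 (-0.91 ± 0.10). Of 46 tested cell cycle genes, 6 were higher and 5 lower. CCND2, cyclin D2, had 712 and 639 CPM in naive RH6 and 312 and 323 CPM in naive RH5 (1.12 ± 0.10), and CDKN1A, a cell cycle inhibitor gene, had 22.5 and 19.7 CPM in naive RH6 and 35.3 and 38.2 CPM in naive RH5 (-0.77 ± 0.12). The 6 higher fell to 3 without naive RH6 replicate 1, naive RH5 replicate 1 or naive RH5 replicate 2. Of 57 tested replication-dependent histone genes, whose transcripts lack poly(A) tails, 2 were higher and 11 lower, and the 11 became 6 without naive RH6 replicate 1 and 21 without naive RH6 replicate 2. HIST1H3C had 37.6 and 52.03 CPM in naive RH6 and 178 and 206 CPM in naive RH5 (-2.07 ± 0.15). Of 25 tested p53 target genes, 4 were higher and 6 lower, and the 4 fell to 2 without naive RH6 replicate 2 or naive RH5 replicate 1. Of 32 tested sterol and fatty acid genes, 4 were higher and 4 lower, and the 4 higher fell to 2 without naive RH5 replicate 1.

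Of 22 tested genes of MHC class I and the interferon response, 3 were higher and 7 lower in naive RH6. The 3 fell to 1 with DESeq2 or without naive RH5 replicate 1. BST2, an interferon-induced antiviral gene, had 18.9 and 25.3 CPM in naive RH6 and 52.04 and 52.7 CPM in naive RH5 (-1.22 ± 0.14). Of 15 tested named endogenous retrovirus genes, 1 was higher and 4 lower, and the 4 fell to 1 without naive RH6 replicate 1 and to 2 without naive RH6 replicate 2 or naive RH5 replicate 1. The 4 lower were ERVFRD-1 (-1.16), ERVMER34-1 (-0.99), ERVH48-1 (-0.40) and ABHD12B, a cellular gene that the list also holds. The first 3 calls were lost in 5, 4 and 1 of 13 other settings. ABHD12B had 156 and 183 CPM in naive RH6 and 228 and 229.9 CPM in naive RH5 (-0.41 ± 0.10), and its call was lost without naive RH6 replicate 1. Of 14 tested genes of the 20q11.21 region, a segment often gained in cultured human embryonic stem cells, 2 were higher and 2 lower, with a median of 0.11.

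The primed libraries tell which of these differences the lines also had outside the naive state. Each line has 1 primed library, so the primed difference has no replicate check, and in the test of the difference between states the lone libraries were assumed to vary like the naive duplicates. Of the 4892 genes called in the naive comparison, 48.8% had the same sign in the primed libraries, and of all tested genes 49.1%. Across the 16880 genes, which are not independent replicates, naive and primed line differences correlated at a Pearson r of 0.20 and a Spearman rho of -0.01. Of all tested genes, 725 differed at least 2-fold in the primed libraries in the direction of their naive difference and 730 in the opposite direction. Of the 93 genes called at least 8-fold higher in naive RH6, 35 were at least 2-fold higher in primed RH6 and 17 at least 2-fold lower. Of the 144 called at least 8-fold lower, 35 were at least 2-fold lower in primed RH6 and 31 at least 2-fold higher. The line effect differed between the states in 2337 genes (13.8%), with a higher RH6 minus RH5 difference in naive cells in 1075 (6.37%) and lower in 1262 (7.48%).

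Genes with opposite line differences in the 2 states included nodal and endoderm genes. LEFTY2, higher in naive RH6, had 6.76 CPM in primed RH6 and 60.3 CPM in primed RH5, and its line effect differed between the states by 4.24 ± 0.18 (edgeR adjusted p = 4.26e-06). EOMES had 3.89 CPM in primed RH6 and 19.1 CPM in primed RH5 (4.11 ± 0.23), and SOX17 had 0.819 CPM in primed RH6 and 7.67 CPM in primed RH5 (5.42 ± 0.66). GATA4 (4.06 ± 0.36), GATA6 (3.82 ± 0.31), FOXA2 (4.31 ± 0.60) and NODAL (1.74 ± 0.25) had the same pattern. In each of these genes primed RH5 exceeded primed RH6, with 1 primed library per line. The endoderm genes were thus higher in RH6 among naive cells and in RH5 among primed cells, with limits on the naive side. The naive direction of SOX17 was fixed by the CPM limit, and the naive calls of GATA4, GATA6 and FOXA2 had less support, as given above. The immediate early genes EGR2 (-5.06 ± 0.30) and EGR3 were the reverse, low in naive RH6 and higher in primed RH6 than in primed RH5. Both were named for the size of their naive difference, which is part of the value tested.

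Other differences had the same direction in both states. NLRP2 had 156 CPM in primed RH6 and 2.95 CPM in primed RH5, a wider gap than in the naive libraries and in the same direction. MKRN3 and CBR1 kept the direction of their naive differences, and RPS28 had log2 differences of 1.07 in naive and 1.02 in primed cells. LRRC32 had 2.66 CPM in primed RH6 and 0.959 CPM in primed RH5, the direction of its naive difference. Its difference in line effect between the states was not called (0.26 ± 0.61, edgeR adjusted p = 0.818). With this standard error and 1 primed library per line, the test cannot show that the difference was shared.

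**Figure D5:**
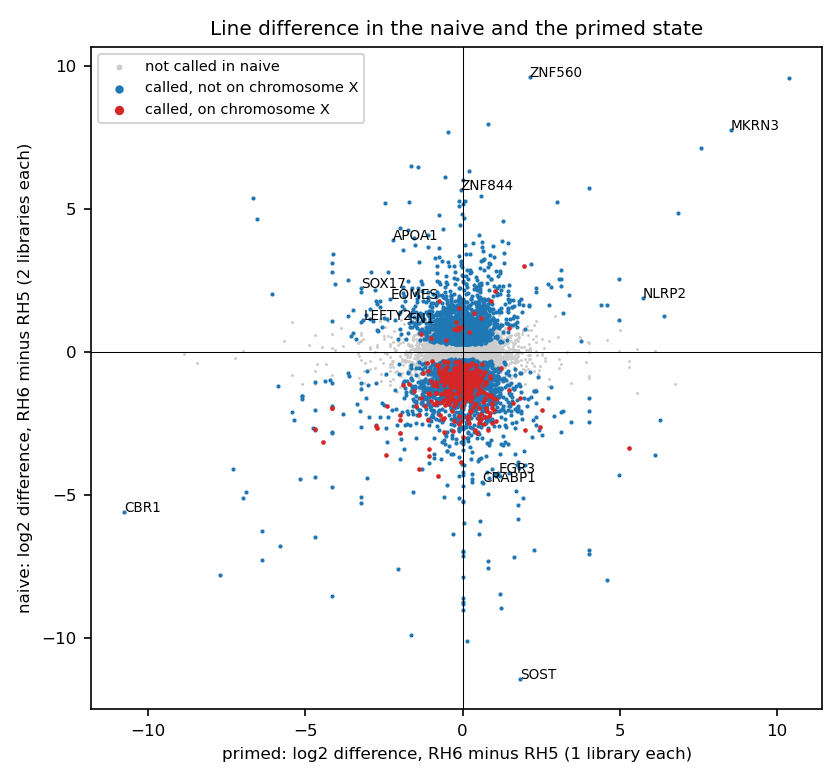
Log2 difference RH6 minus RH5 of each tested gene in the primed libraries (x axis, 1 library per line) and the naive libraries (y axis, 2 per line). Genes not called in the naive comparison are grey, called X-linked genes red and other called genes blue. Most red points, 481 of the called X-linked genes, lie below 0 on the naive axis, and 18 lie above it, with the median of all X-linked genes at 0.01 on the primed axis. LEFTY2, EOMES and SOX17 are positive on the naive axis and negative on the primed axis.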

How the data were processed

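RNA was sequenced as paired reads in 6 libraries. The authors deposited 1 table of raw counts per gene and library, and per the submitters' processing notes FastQC, STAR 2.4.0a, featureCounts 1.4.5-p1 (Subread), DESeq2, hg19 and GRCh37.p5 were used. For the strand setting and annotation release, nothing is stated in the sources read, so reads of overlapping genes, antisense genes and near-identical copies are uncertain. The labels name a stranded kit for total RNA and give the molecule as polyA RNA. Groups, replicate numbers and passages come from the labels.

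Genes with at least 1 CPM in 2 of the 4 naive libraries were tested with edgeR 4.0.16 (R 4.3.3): TMM factors (0.970 to 1.022), quasi-likelihood F-test, Benjamini-Hochberg adjustment, called at an adjusted p under 0.05, with 2 residual degrees of freedom. Of the tested genes, 6783 had an unadjusted p under 0.05. The difference in line effect between naive and primed cells was tested over all 6 libraries with 1 mean per group. CPM shown use TMM factors of all 6 libraries. Standard errors were derived from the F statistic. Both fits were first tested on simulated data. Duplicates differed by more than sampling noise (chi-square per gene 9.22 in RH6 and 5.76 in RH5), so each counts as a library. With 13457979 to 14663982 counts per library, 1 CPM is 13 to 15 reads. Fold limits at 0 counts use a floor of 3 counts over a group, and intervals and floors cover counting error only.

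Chromosomes and gene order came from GENCODE v29 by gene identifier (97.6% of tested genes), and no coordinates were converted between builds. The 250 bases upstream of RefSeq starts on GRCh38.p14 were searched for motifs. The genes named are the 14 called genes with the highest and the 14 with the lowest log2 difference at a mean of at least 5 CPM in the higher line, up to 4 called members per direction of 35 gene lists, the 6 called genes with the largest CPM difference in each direction, and a set of genes given whatever their result. Of 1210 list symbols 1197 were found and 979 tested, and 120 are in more than 1 list. The comparison, genes and lists were chosen with earlier results of these data known. Alternatives were other scalings, filters, tools (DESeq2 1.42.0, limma 3.58.1), sample sets and leaving out each naive library. A further 36 tested genes are not reported here.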

Additional observations from a re-analysis of the deposited data

Results flagged for a closer look

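The difference between the lines was itself different in naive and primed cells for 1075 genes in which RH6 minus RH5 was higher in naive cells and 1262 in which it was lower, by the edgeR test over all 6 libraries at an adjusted p under 0.05. Of the 28 genes with the widest naive differences, 25 were among them, against 13.8% of all tested genes. The 28 were picked by their naive difference, which is part of the value tested. Their share is therefore not a result about these genes. Of the genes named whatever their result, 18 were called in this test. The values below are naive minus primed line differences on the log2 scale. Each line had 1 primed library, which the test assumes to vary like the naive duplicates, and where a group had 0 counts the fitted value depends on the prior count.

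Of the genes highest in naive RH6 relative to naive RH5, the line difference was higher in naive cells for ZNF560 (7.45), ZNF69 (6.08), ZNF736 (6.64), ZNF844 (5.68), ATP8A2 (4.85), CT64 (5.96), TMBIM4 (3.52), APOA1 (6.09), LIN7A (2.58), CLDN11 (5.203), CCDC152 (2.72), CBLN1 (3.04) and MFAP4 (3.14). Of the genes lowest in naive RH6, it was lower in naive cells for SOST (-13.29), VSTM2B (-8.31), SLC5A7 (-9.68), CLEC10A (-8.15), GALP (-11.00), CLEC11A (-6.08), ATP6V1B1 (-7.17), GDF10 (-7.04), SLC34A2 (-4.52), LYNX1 (-3.38), TFAP2B (-6.61) and TNFSF9 (-4.20). SNORD3B-1 from the first set, and CBR1 and HOXA3 from the second, were not called in this test.

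Among pluripotency, nodal and lineage genes, the line difference was higher in naive cells for NR5A2 (1.88), NODAL (1.74), LEFTY1 (1.63), LEFTY2 (4.24), TDGF1 (1.66), NANOG (1.24), PRDM14 (1.03), ZIC2 (1.15), OTX2 (1.26), T (2.45), EOMES (4.11), GATA4 (4.06), GATA6 (3.82), SOX17 (5.42), FOXA2 (4.31) and COL1A1 (1.95). It was lower in naive cells for SMAD7 (-0.82) and PAX6 (-1.61). Nodal pathway genes (NODAL, LEFTY1, LEFTY2 and TDGF1) and endoderm genes (EOMES, GATA4, GATA6, SOX17 and FOXA2) all had a higher RH6 minus RH5 difference in naive than in primed cells.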

How the results depend on the processing

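The counts of called genes, 2336 higher and 2556 lower in naive RH6, were 2227 and 2618 with RLE factors, 2029 and 2735 with upper-quartile factors, 1597 and 1852 with DESeq2, 2325 and 2500 with limma-voom, and 2115 and 2732 with all 6 libraries in the fit. In a test against a 1.5-fold change they were 553 and 1050. Leaving out 1 naive library gave 1579 to 1938 higher and 2025 to 2291 lower, with the lone remaining library assumed to vary like the other line's duplicates. With autosomal genes only, chosen after seeing the data, they were 2056 and 2116. The replicate numbers are not shown to pair the samples, and 2 pairs of libraries cannot decide it. Across tested genes, duplicate 1 minus duplicate 2 in naive RH6 correlated at 0.21 with the same difference in naive RH5. With a replicate block 3597 genes were higher and 3606 lower.

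The difference in line effect between naive and primed cells, called higher in 1075 and lower in 1262 genes, was called in 1627 and 1702 with no filter on low counts, which tests more genes, and in 643 and 663 with DESeq2, where the cause was not tested. Leaving out 1 naive library gave 913 to 1146 higher and 1140 to 1334 lower. Over alternatives, 433 to 513 X-linked genes were called lower, and 282 against a 1.5-fold change.

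The signs that reversed belonged to values that were not called under the settings that reversed them. Leaving out 1 naive library gave log2 differences of -0.14 to 0.16 for DNMT3A, -0.18 to 0.18 for PAX6, -0.19 to 0.12 for DNMT3L, -0.60 to 0.30 for DPPA3 and -0.0361 to 0.41 for POU5F1. It gave differences in line effect of -0.0431 to 0.25 for DNMT3A and -0.37 to 0.19 for RARA. DNMT3A was -0.00312 and PAX6 -0.0107 with upper-quartile factors, PAX6 was -0.0075 with all 6 libraries, and DNMT3L was 0.00301 with no filter on low counts. The cause was not tested. Of the list counts, 824 of those recomputed stayed within 1.5 times the main count and 156 did not. With 2 libraries per line from 1 passage each, and 1 primed library per line, the spread between cultures is unknown.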
